A study of Mus musculus with 6 samples.

Results

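The ligands of the tumor necrosis factor (TNF) superfamily described here were Lta, Ltb, Tnf, Tnfsf4, Tnfsf8, Tnfsf10, Tnfsf11, Tnfsf12, Tnfsf13b and Tnfsf14, which are 10 of the 53278 genes of the deposited table. They were found by their gene symbols, and all 10 passed the filter on low counts. These genes were selected on their library-size normalized counts in the same 6 libraries in which they are described. Their differences between groups are therefore given as a description with no test of their own, and each count of ligands past a threshold stands beside the share of all genes past it.

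The libraries were made from type-2 innate lymphoid cells (ILC2s) sorted from the visceral adipose tissue of C57BL/6 mice aged 8 weeks. All mice had received 3 intraperitoneal injections of 1 µg recombinant mouse IL-33, so ILC2s that were not exposed to IL-33 were not measured. The sorted cells were cultured for 48 h by the sample descriptions (the study's text also gives a shorter time) with 10 ng/mL IL-2 and 10 ng/mL IL-7. To these cultures was added either DTA-1 (5 µg/mL), an agonistic antibody to the TNF receptor family member GITR (3 libraries), or a rat IgG2b isotype control (3 libraries). The sample titles and treatment labels of the control libraries say isotype control, while their columns in the table carry the word PBS. The sort kept cells with CD45, ST2 and CD117 and excluded those bearing FcεRI, Ter119, CD45R, the T cell chains TCRγδ and CD3ε, or the myeloid markers CD11b, CD11c and Gr-1. The labels do not say whether the 3 libraries of a group came from separate mice or cultures, so the p-values below measure the spread between these libraries, which may be technical.

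TNF superfamily ligands are mostly made as membrane proteins that act as trimers, and many can be cut from the cell surface to act at a distance. They bind receptors of the TNF receptor superfamily, which signal through TRAF adaptors to NF-κB and the mitogen-activated protein kinases or, where the receptor has a death domain, through caspases. Lymphotoxin α (Lta) is secreted as a homotrimer that binds the TNF receptors, and it reaches the cell surface only when bound to lymphotoxin β (Ltb), in a complex that binds the lymphotoxin β receptor and is known for building lymphoid tissue. GITR itself is a receptor of this superfamily.

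Lta, Tnf and Ltb are neighbouring genes on chromosome 17. In the coordinates of the table (GRCm38), Ltb lies at 35194439 to 35196320 on the plus strand, Tnf at 35199381 to 35202007 on the minus strand and Lta at 35203165 to 35205351 on the minus strand. The whole span is 10.9 kb, with 3.06 kb between Ltb and Tnf and 1.16 kb between Tnf and Lta. The sequence before the start of each is shown because the levels of these genes moved together in the libraries described below. It was taken from RefSeq (GRCm38.p6), which gave an entry for 8 of the 10 ligands, and is written 5′ to 3′ on the strand of the gene at chr17:35205352-35205601 for Lta, chr17:35194257-35194438 for Ltb and chr17:35202008-35202257 for Tnf. The RefSeq start of Ltb lies 68 bases inside the gene as the table has it, and those bases are left out. Capitals mark a match to the κB consensus (the site bound by NF-κB, searched on both strands) or to the core of the TATA box, TATAAA.
Lta: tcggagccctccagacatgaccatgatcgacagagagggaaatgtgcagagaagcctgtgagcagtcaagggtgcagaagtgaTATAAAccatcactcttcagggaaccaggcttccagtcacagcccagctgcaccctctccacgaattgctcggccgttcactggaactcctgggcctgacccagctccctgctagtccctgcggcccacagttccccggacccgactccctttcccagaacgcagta
Ltb: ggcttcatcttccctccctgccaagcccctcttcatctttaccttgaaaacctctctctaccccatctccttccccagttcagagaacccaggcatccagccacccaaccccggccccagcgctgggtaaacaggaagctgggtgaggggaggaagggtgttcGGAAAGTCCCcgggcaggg
Tnf: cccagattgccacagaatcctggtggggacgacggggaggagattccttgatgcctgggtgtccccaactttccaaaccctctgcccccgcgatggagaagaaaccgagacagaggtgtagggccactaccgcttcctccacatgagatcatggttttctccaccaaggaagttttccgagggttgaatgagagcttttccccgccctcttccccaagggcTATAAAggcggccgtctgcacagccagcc

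Within the 250 bases before the RefSeq start, the κB consensus was matched in Ltb, on the opposite strand with its first base at position −87 from the start, and in no other of the 8 ligands with an entry. It was matched in 7.25% of 32851 mouse promoters of the same length. TATAAA was matched on the strand of the gene in Lta and Tnf and on the opposite strand in Tnfsf11. A match on either strand was found in 12.4% of all promoters. Its first base was at position −29 from the start of Tnf and −167 from that of Lta. The AP-1 motif TGANTCA, which is found in 6.75% of all promoters, was matched in Tnfsf14 and Tnfsf13b. In Tnfsf13b it was matched only for the RefSeq start that lies 166 bases inside the gene as the table has it. That match, at position −127, thus falls inside the gene, and the other RefSeq start of Tnfsf13b had no match. These matches describe letters in a short window and are not measured binding.

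The 6 libraries held 30569351 to 35131329 counts, of which 10861 to 28575 fell on the 10 ligands. The library labelled DTA-1 replicate 1 stood apart from its group. The distance between 2 libraries, a chi-square over their gene counts per degree of freedom that is near 1 for counting noise alone, was 10.1 to 12 between this library and the isotype control libraries, and 29.2 to 30.6 between it and DTA-1 replicates 2 and 3. This distance was 12.1 to 18.5 among the isotype control libraries and 12 between DTA-1 replicates 2 and 3. Tnfrsf18, which encodes GITR, was at 747, 666 and 740 normalized counts with isotype control and 712, 756 and 657 with DTA-1, and does not tell the groups apart. Results are therefore given with all 6 libraries and again without DTA-1 replicate 1. That library was singled out by its counts, and leaving it out for this reason tends to enlarge differences and lower p-values. The p-values and calls without it are therefore descriptive. A gene is called below where edgeR's quasi-likelihood test gave an adjusted p under 0.05 and the difference was at least 1.5-fold.

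The sorted cells carried the markers of ILC2s, with lower levels of the listed markers of other cell types. All 12 ILC2 markers were above 0, and their summed level was 12070 to 13101 normalized counts with isotype control and 13196 to 17351 with DTA-1. Most of that sum was Il5 (5063 to 5493 and 5627 to 9695) and Il2ra (1952 to 2240 and 2243 to 2810). Without DTA-1 replicate 1, Il5 and Areg rose (log2 fold changes 0.8 and 0.75, adjusted p = 0.000115 and 0.000163, edgeR) and Icos fell (log2 fold change −0.71, adjusted p = 0.00129). None of these was called with all 6 libraries (adjusted p = 0.627 for each). The 6 markers of ILC3 and lymphoid tissue inducer cells summed to 1.11 to 1.3 in isotype control and 0.961 to 1.94 in DTA-1, with Il17a, Il23r and Ncr1 at 0. The 6 T cell markers summed to 40.9 to 54.1 and 47.6 to 51.3, with Cd8a at 0. Cd3g made up most of that sum (36.2 to 48.6 and 41.5 to 45.3). Of the genes of the B cell receptor complex, Cd79b was at 16.4 to 17.3 and 16.8 to 17.8, and Cd79a was at 0.254, 0.0855 and 0.0283 with isotype control against 0.291, 0.416 and 0.502 with DTA-1. Those Cd79a values rest on 9, 3 and 1 counts against 9, 13 and 16, too few to pass the filter with all 6 libraries. Ms4a1 and Pax5 were at 0. The 6 markers of ILC1 and NK cells summed to 0.283 to 0.855 and 0.577 to 1.54 (Klrb1c, Ifng and Ncr1 at 0), the 4 neutrophil markers to at most 0.428 and 0.769 and the 3 adipocyte markers to at most 0.0283 and 0.032. The 7 macrophage markers summed to 6.44 to 12.2 and 8.67 to 11.9, the 4 dendritic cell markers to 47.2 to 49.3 and 46.1 to 49.9. Xcr1 made up most of the dendritic cell sum (46 to 47.7 and 44.4 to 46.9). The 6 fibroblast markers summed to 2.2 to 8.39 and 0 to 3.98. Among them Col1a1 had 60, 56 and 68 counts with isotype control against 0, 9 and 3 with DTA-1, and Pdgfra had 68, 14 and 25 against 0 in each DTA-1 library. In both, DTA-1 replicate 1 lay below the isotype control libraries. The groups overlapped for Col1a2 (11, 4 and 94 counts against 0, 0 and 31) and Col3a1 (57, 3 and 102 against 0, 0 and 92). They also overlapped for Dcn (20, 0 and 4 against 0, 0 and 1) and Lum (0, 0 and 3 against 0 in each DTA-1 library). Of the 3 endothelial markers, Pecam1 was at 24.4, 18.4 and 22.2 with isotype control against 18.3, 10.4 and 10.8 with DTA-1, Kdr had 5 counts in DTA-1 replicate 2 and 0 elsewhere, and Cdh5 was at 0. The 4 mast cell markers summed to 10.3 to 16.2 and 12 to 30.3, although the sort excluded cells with FcεRI. Of these markers Cpa3 moved with DTA-1 replicates 2 and 3 (7.49, 7.3 and 4.37 with isotype control against 6.82, 19.4 and 12.8 with DTA-1). For Tpsb2 (4.38, 6.04 and 5.02 against 3.66, 8.26 and 4.96) DTA-1 replicates 2 and 3 overlapped isotype control. They also did so for Fcer1a (1.19, 2.85 and 0.765 against 1.52, 2.63 and 3.11). Mcpt4 had 0, 0 and 4 counts against 0, 0 and 14. Without DTA-1 replicate 1, Cpa3 was called higher (log2 fold change 1.33, adjusted p = 0.0391, edgeR). Col1a1, Pdgfra and Pecam1 were called lower in that fit (−3.17, −8.1 and −1.03, adjusted p = 0.0325, 0.0481 and 0.0132, edgeR). With all 6 libraries the adjusted p of Cpa3, Col1a1, Pdgfra and Pecam1 was 0.627, 0.491, 0.452 and 0.627 by edgeR. The part of Cd79a, Col1a1, Pdgfra, Pecam1 and Cpa3 in the results was not tested.

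With all 6 libraries the lymphotoxins were the ligands with the largest difference between groups. In DTA-1 replicates 2 and 3 Lta and Ltb were over 3-fold above the isotype control mean, and Tnf, which lies between them, was over 2-fold above it. Lta was at 53.7, 38.1 and 44.3 normalized counts (CPM after TMM scaling) in isotype control replicates 1, 2 and 3, and at 41, 169 and 148 in the DTA-1 replicates. DTA-1 replicate 1 thus lay within the isotype control range, and the other 2 DTA-1 libraries lay above it. The means were 45.3 ± 7.86 (SD, n = 3) and 119 ± 68.4 (SD, n = 3). Lta had a log2 fold change of 1.39 (SE 0.55, 95% confidence interval −0.02 to 2.81), and without DTA-1 replicate 1 it was 1.8 (SE 0.13, interval 1.51 to 2.09), which is a 3.49-fold higher level.

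Ltb, the highest of the 10 ligands per kb of exon in both groups, had the same pattern as Lta. It was at 166, 125 and 142 normalized counts in isotype control and at 142, 514 and 491 in DTA-1, with means and SDs of 145 ± 20.5 and 382 ± 209 over 3 libraries each. The groups overlapped through DTA-1 replicate 1 alone. For Ltb the log2 fold change was 1.4 (SE 0.53, interval 0.04 to 2.76), and 1.8 (SE 0.1, interval 1.57 to 2.02) without DTA-1 replicate 1.

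Tnf, the inflammatory cytokine that names the family, was present at a lower level. It was at 9.89, 6.67 and 7.34 normalized counts in isotype control and at 10.2, 19.8 and 16.2 in DTA-1, with means and SDs of 7.97 ± 1.7 and 15.4 ± 4.87 over 3 libraries each. The groups did not overlap, but DTA-1 replicate 1 was nearly level with isotype control replicate 1. Tnf had a log2 fold change of 0.95 (SE 0.24, interval 0.41 to 1.49), and 1.18 (SE 0.2, interval 0.73 to 1.62) without DTA-1 replicate 1.

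**Figure D1:**
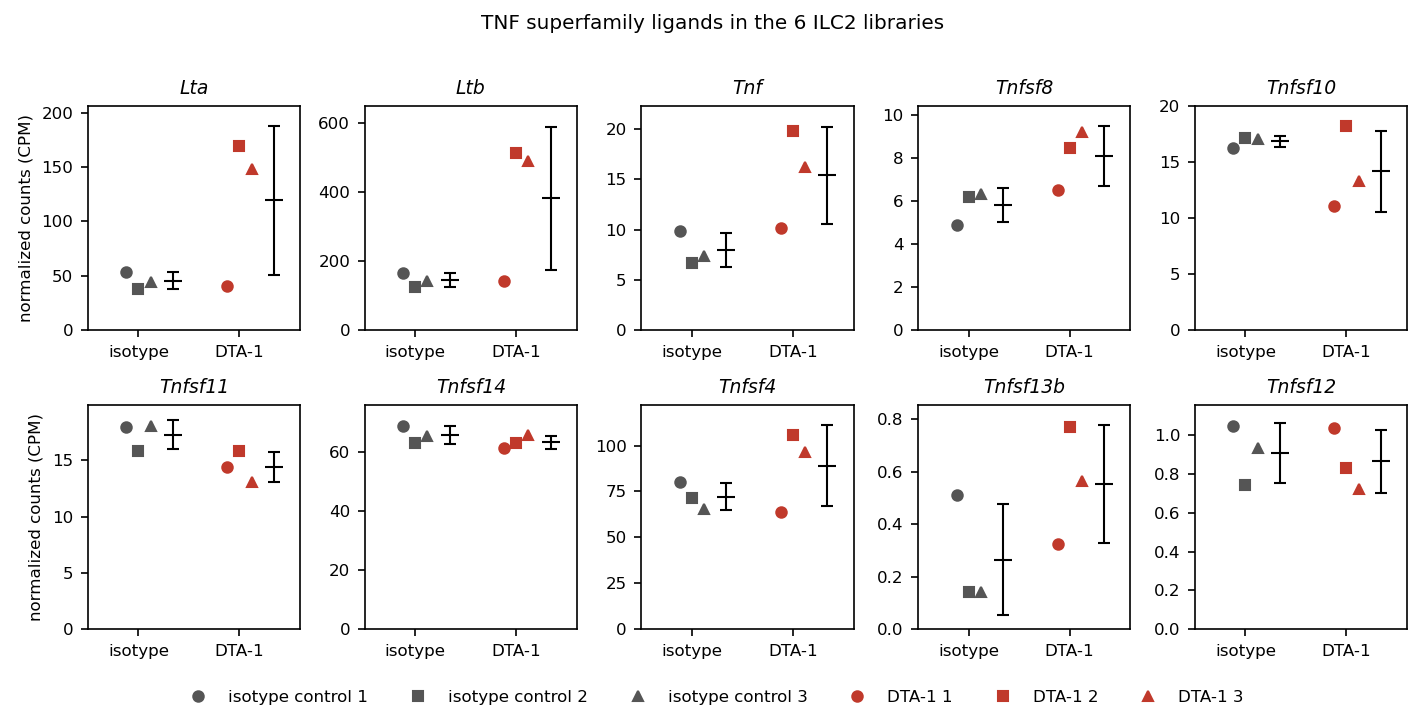
Normalized counts (CPM after TMM scaling, y axis, from 0) of each of the 10 ligands in the 3 isotype control (gray) and 3 DTA-1 (red) libraries, with marker shapes for replicates 1, 2 and 3 and bars for the mean ± SD of each group. For Lta, Ltb and Tnfsf4 the DTA-1 circle (replicate 1) lies with the gray points while the square and triangle lie above them, and for Tnfsf14 the groups lie at the same height (65.7 and 63.1).

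The 2 lymphotoxin mRNAs kept a nearly fixed proportion to each other across libraries that differed in the level of both. Per length of exon, the level of Ltb was 2.82, 3.01 and 2.93 times that of Lta in the isotype control libraries and 3.15, 2.78 and 3.04 times in the DTA-1 libraries, and these ranges overlap. Tnf did not keep its proportion. The level of Lta per length was 6.43, 6.76 and 7.15 times that of Tnf in isotype control, 4.79 times in DTA-1 replicate 1, and 10.1 and 10.8 times in DTA-1 replicates 2 and 3. Ltb and Lta together made up 52.5%, 47.5% and 50.8% of the counts of the 10 ligands in isotype control, 52% in DTA-1 replicate 1, and 74.6% and 74.8% in DTA-1 replicates 2 and 3.

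The genes on either side of this locus were called neither with all 6 libraries nor without DTA-1 replicate 1. Nfkbil1, which lies 14.8 kb beyond Lta, was at 19.2, 20.7 and 15.9 normalized counts in isotype control and at 17.6, 20.4 and 18.2 in DTA-1. Its log2 fold change was 0.01 (SE 0.14, adjusted p = 0.994, edgeR's quasi-likelihood test), and 0.05 (SE 0.15, adjusted p = 0.919) without DTA-1 replicate 1. Lst1, a leukocyte gene 6 kb beyond Ltb, was at 0.933, 0.941 and 1.05 in isotype control and at 1.04, 1.73 and 1.51 in DTA-1, on 32 to 54 counts a library. Its log2 fold change was 0.55 (SE 0.39, adjusted p = 0.79, edgeR) and 0.73 (SE 0.41, adjusted p = 0.471) without DTA-1 replicate 1. The microRNA genes annotated inside Lta and Ltb, Mir6974 and Mir6973a, had at most 5 counts in any library.

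**Figure D2:**
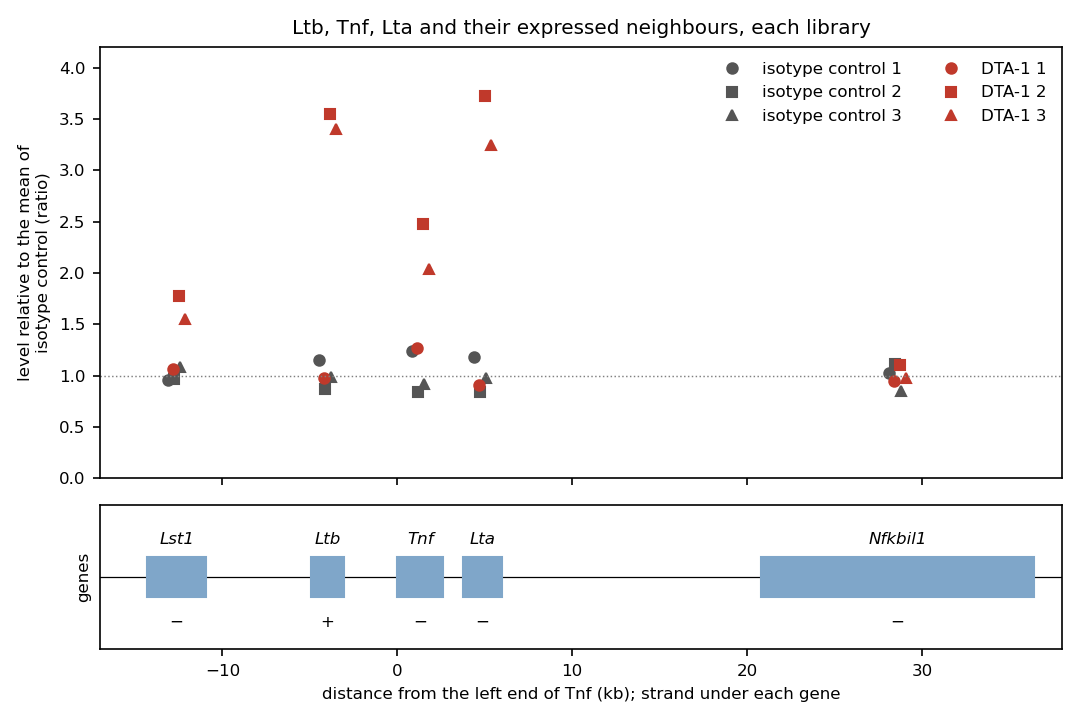
Upper panel: level of Lst1, Ltb, Tnf, Lta and Nfkbil1 in each library divided by the isotype control mean of that gene (y axis, linear ratio), at the gene's place in kb from the left end of Tnf (x axis). Lower panel: the genes as boxes to scale with their strand. The DTA-1 squares and triangles (replicates 2 and 3) reach 3.55 and 3.4 at Ltb, 2.48 and 2.04 at Tnf and 3.72 and 3.25 at Lta. They lie at 1.78 and 1.55 at Lst1, which had few counts, and at 1.1 and 0.979 at Nfkbil1.

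Among the ligands known as costimulatory signals, Tnfsf4 and Tnfsf8 were higher in DTA-1 replicates 2 and 3 and Tnfsf14 was level. Tnfsf4 (chromosome 1, 161395409 to 161418410, plus strand) encodes OX40 ligand, which ILC2s use to costimulate T cells. It was at 79.9, 71.2 and 65.3 normalized counts in isotype control and at 64, 106 and 96.7 in DTA-1 (mean and SD 72.2 ± 7.33 and 88.9 ± 22). DTA-1 replicate 1 lay below every isotype control library and the other 2 DTA-1 libraries above. The difference in Tnfsf4 was a log2 fold change of 0.3 (SE 0.16, interval −0.04 to 0.65), and 0.49 (SE 0.1, interval 0.27 to 0.71) without DTA-1 replicate 1.

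Tnfsf8 (chromosome 4, 63831308 to 63861347, minus strand) encodes the ligand of CD30. It was at 4.89, 6.19 and 6.35 normalized counts in isotype control and at 6.53, 8.49 and 9.22 in DTA-1 (mean and SD 5.81 ± 0.8 and 8.08 ± 1.39). All 3 DTA-1 libraries lay above the isotype control libraries, replicate 1 only just. Tnfsf8 had a log2 fold change of 0.48 (SE 0.21, interval 0.02 to 0.93), and 0.61 (SE 0.2, interval 0.15 to 1.07) without DTA-1 replicate 1.

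Tnfsf14 (chromosome 17, 57189492 to 57194189, minus strand) encodes LIGHT, which shares the lymphotoxin β receptor with the lymphotoxin heterotrimer. It was at 68.8, 62.8 and 65.4 normalized counts in isotype control and at 61.1, 62.8 and 65.6 in DTA-1 (mean and SD 65.7 ± 2.97 and 63.1 ± 2.24), and the groups overlapped. Its log2 fold change was −0.06 (SE 0.08, interval −0.23 to 0.12), and −0.03 (SE 0.08, interval −0.22 to 0.15) without DTA-1 replicate 1. The mRNA level of Tnfsf14 relative to Lta was lower in DTA-1 replicates 2 and 3, where Lta was higher. Per length, the level of Tnfsf14 was 0.959, 1.24 and 1.11 times that of Lta in isotype control, 1.12 times in DTA-1 replicate 1, and 0.279 and 0.333 times in DTA-1 replicates 2 and 3.

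The ligands of bone remodelling and of cell death were not higher in DTA-1. Tnfsf11 (chromosome 14, 78277445 to 78308043, minus strand) encodes RANKL, the signal for osteoclast formation. Its normalized counts were 18, 15.8 and 18.1 with isotype control against 14.4, 15.8 and 13.1 with DTA-1. The DTA-1 libraries were all lower, with isotype control replicate 2 and DTA-1 replicate 2 equal to 3 digits. Tnfsf11 had a log2 fold change of −0.26 (SE 0.14, interval −0.56 to 0.04), and −0.26 (SE 0.15) without DTA-1 replicate 1.

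Tnfsf10 (chromosome 3, 27317028 to 27342427, plus strand) encodes TRAIL, which can trigger apoptosis through its receptor. It was at 16.3, 17.2 and 17.1 normalized counts in isotype control and at 11.1, 18.2 and 13.3 in DTA-1, so that 1 DTA-1 library lay above and 2 below the isotype control range. Tnfsf10 had a log2 fold change of −0.25 (SE 0.18, interval −0.64 to 0.14), and −0.1 (SE 0.16, interval −0.46 to 0.27) without DTA-1 replicate 1.

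Tnfsf12 and Tnfsf13b were near the lower end of what these libraries could measure. Tnfsf12 (chromosome 11, 69686250 to 69695849, minus strand) encodes TWEAK, and was at 1.05, 0.741 and 0.935 normalized counts with isotype control against 1.04, 0.833 and 0.722 with DTA-1, on 23 to 37 counts a library. The fitted log2 fold change was −0.07 (SE 0.44, interval −1.04 to 0.9) and changed sign, to 0.05 without isotype control replicate 1 and to 0.04 without DTA-1 replicate 3. Its span overlaps Tnfsfm13, a gene on the same strand with 11 to 35 counts, so how the reads were divided between these genes is uncertain. Tnfsf13b (chromosome 8, 10006467 to 10039072, plus strand) encodes BAFF, the survival factor of B cells. With isotype control it had 18, 5 and 5 counts and with DTA-1 it had 10, 24 and 18 (mean and SD of the normalized counts 0.264 ± 0.212 and 0.552 ± 0.223), and the groups overlapped. Tnfsf13b had a log2 fold change of 1.05 (SE 0.68, interval −0.46 to 2.56), 1.32 (SE 0.8) without DTA-1 replicate 1, and 1.93 without isotype control replicate 1.

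The 10 ligands were split between genes that were higher and genes that were lower in DTA-1. Their log2 fold changes were above 0 for 6 and below 0 for 4, with a median of 0.39, beside −0.008 over all 14361 genes tested. Without DTA-1 replicate 1 the same 6 were above 0 and the median was 0.55, beside −0.015 over all genes. Both lymphotoxins and Tnf were the ligands called without that library. These were 3 of 10, all higher, beside 87 of 14911 genes called higher (0.583%) and 24 called lower (0.161%). Tnfsf4 passed the adjusted p there, but its 1.4-fold difference fell short of the fold limit. With all 6 libraries 0 of the 10 ligands were called, beside 0 of 14361 genes (0%), and 0 were called by DESeq2 or limma-trend. Ltb and Tnf passed 1.5-fold with an unadjusted p under 0.05, beside 1.09% of all genes that did so in the higher direction.

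The position of DTA-1 replicate 1 can be read gene by gene. It was nearer the isotype control mean than the mean of DTA-1 replicates 2 and 3 for 7 of the 10 ligands, and Tnfsf10, Tnfsf11 and Tnfsf14 were the exceptions. It lay within the isotype control range for 4, above it for 2 and below it for 4. The shares of all genes in these positions were not counted. The library as a whole was nearer isotype control, so these positions cannot show whether the ligands differ from other genes. With all libraries the groups did not overlap for Tnf and Tnfsf8, which were higher, and Tnfsf11, which was lower. That is 2 of 10 higher and 1 of 10 lower, beside 5.26% and 6.03% of all genes tested. DTA-1 replicates 2 and 3 both lay above the 3 isotype control libraries for 6 ligands and below them for 1, beside 15.4% and 15.9% of all 14911 genes.

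**Figure D3:**
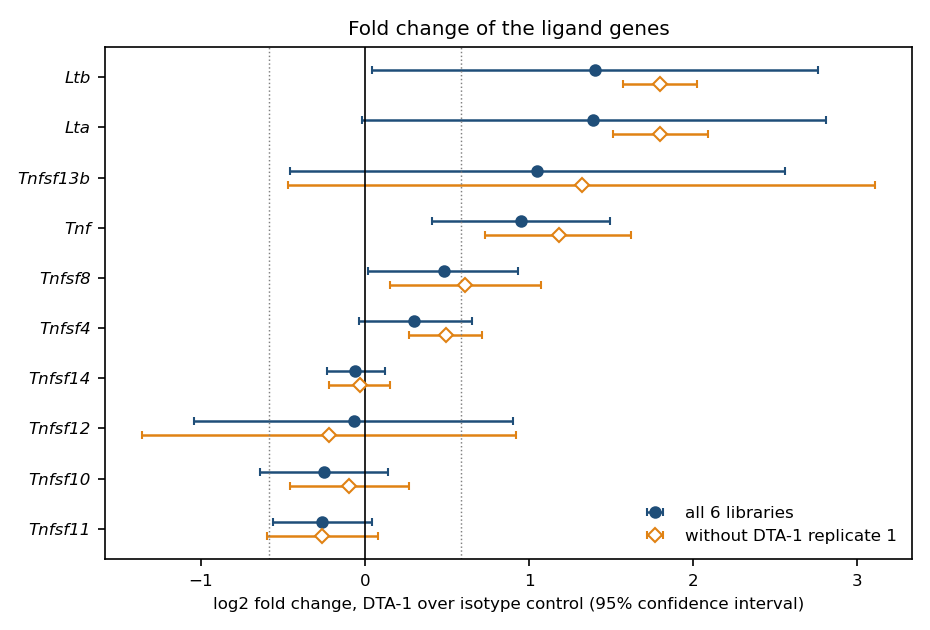
Log2 fold change of each ligand, DTA-1 over isotype control (x axis), with its 95% confidence interval, for all 6 libraries (filled circles) and without DTA-1 replicate 1 (open diamonds); dotted lines mark 1.5-fold in each direction. Leaving that library out moves Lta and Ltb from 1.39 and 1.4 to 1.8 and narrows their intervals, while Tnfsf14 stays beside 0 and Tnfsf13b and Tnfsf12 keep wide intervals.

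Levels can be compared between genes per kb of exon. In isotype control Ltb was highest, at 95.4 ± 13.5 normalized counts per kb (SD, n = 3). It was followed by Tnfsf4 (39.2 ± 3.98), Tnfsf14 (35.5 ± 1.61) and Lta (32.8 ± 5.68), which are neighbours in the order whose ranges overlapped. Tnfsf11 (7.74 ± 0.585), Tnf (4.86 ± 1.04), Tnfsf10 (3.2 ± 0.0978), Tnfsf8 (1.53 ± 0.21), Tnfsf12 (0.599 ± 0.102) and Tnfsf13b (0.0385 ± 0.0308) came next, with no overlap between neighbours. In DTA-1 Ltb (252 ± 138) was followed by Lta (86.1 ± 49.5) and then by Tnfsf4 (48.3 ± 12) and Tnfsf14 (34.2 ± 1.21), and the ranges of these neighbours overlapped. Tnf (9.39 ± 2.97) stood before Tnfsf11 (6.45 ± 0.585) in DTA-1, with overlapping ranges. In bulk samples, more cells that transcribe a gene and more mRNA in each cell cannot be told apart.

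The other 8 ligands of the superfamily were mostly near or at 0. Tnfsf18, the ligand of GITR itself, had 0, 2 and 10 counts with isotype control against 6, 0 and 0 with DTA-1. A count of 0 here allows up to 3 counts, or 0.0848 to 0.097 CPM, by counting error alone. Fasl, Eda and Tnfsf13 had no count in any library, Tnfsf15 had at most 4, Cd70 at most 7 and Cd40lg at most 17. Tnfsf9, the ligand of 4-1BB and the 1 gene of these 8 that was tested, was at 27.9, 25 and 25.1 normalized counts with isotype control against 24.3, 26 and 27.1 with DTA-1 (log2 fold change −0.01, SE 0.11, interval −0.25 to 0.22, adjusted p = 0.991, edgeR). Tnfsf9 lies on chromosome 17 with Cd70 and Tnfsf14, with 38.2 kb between Tnfsf9 and Cd70 and 39.7 kb between Cd70 and Tnfsf14.

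The receptors of these ligands differed in level, and Tnfrsf4 was the 1 receptor called in any fit. Tnfrsf4 encodes OX40, the receptor of Tnfsf4. It was at 29.8, 22.4 and 30.5 normalized counts in isotype control and at 32.3, 55.2 and 56.8 in DTA-1, with no overlap. Its log2 fold change was 0.8 (SE 0.2, adjusted p = 0.627, edgeR with all 6 libraries). Without DTA-1 replicate 1 Tnfrsf4 rose, with a log2 fold change of 1.02 (SE 0.13, adjusted p = 0.00573, edgeR), and over all alternatives its adjusted p ranged from 0.00573 to 0.999. Of the 28 receptor genes 23 were tested. With all 6 libraries 0 were called by edgeR or limma-trend, 1 (Tnfrsf4) passed 1.5-fold with an unadjusted p under 0.05, and 1 (Tnfrsf4) was called by DESeq2, which called 13 of 16489 genes higher (0.0788%). Tnfrsf9, which encodes 4-1BB, was at 179, 189 and 194 with isotype control against 186, 328 and 232 with DTA-1 (log2 fold change 0.41, SE 0.16, adjusted p = 0.655, edgeR, and 0.58, SE 0.12, adjusted p = 0.0481 without DTA-1 replicate 1, which is under the fold limit).

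Set beside their receptors per kb of exon, Ltb and Lta stood far above the receptor of their heterotrimer. Ltbr, the lymphotoxin β receptor, was at 0.475 ± 0.238 normalized counts per kb (SD, n = 3) with isotype control and at 0.514 ± 0.319 with DTA-1, and the values below follow in that order. The TNF receptors, which bind Tnf and the Lta homotrimer, were unequal, with Tnfrsf1b at 41.7 ± 0.495 and 46.4 ± 3.5 and Tnfrsf1a at 0.452 ± 0.152 and 0.792 ± 0.426. Tnfrsf14, which encodes HVEM and binds Tnfsf14, was at 0.296 ± 0.0777 and 0.349 ± 0.19. Tnfrsf4 was at 20.2 ± 3.28 and 35.2 ± 10, the same order of level as its ligand.

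Of the remaining ligands, Tnfsf10 was close in level to Tnfrsf10b and Tnfsf11 to Tnfrsf11a. Tnfsf8 and Tnfsf12 lay below their receptors, and Tnfsf13b lay below Tnfrsf13b and Tnfrsf13c but not Tnfrsf17. Tnfsf11 lay above Tnfrsf11b. Tnfrsf10b (receptor of TRAIL) was at 2.97 ± 0.312 and 3.39 ± 0.274 normalized counts per kb, and Tnfrsf11a (RANK) at 7.53 ± 0.556 and 6.67 ± 1.64. Tnfrsf8 (CD30) was at 10.8 ± 0.736 and 10.3 ± 0.795 and Tnfrsf12a, the receptor of TWEAK, at 3.85 ± 0.483 and 4.13 ± 0.543. Of the receptors of Tnfsf13b, Tnfrsf13b (TACI) was at 9.1 ± 0.511 and 7.37 ± 0.955, Tnfrsf13c (the BAFF receptor) at 0.18 ± 0.0642 and 0.151 ± 0.0456, and Tnfrsf17 had no count. Tnfrsf11b, the decoy receptor of RANKL, was at 0.0401 ± 0.0695 and 0.0191 ± 0.0331.

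**Figure D4:**
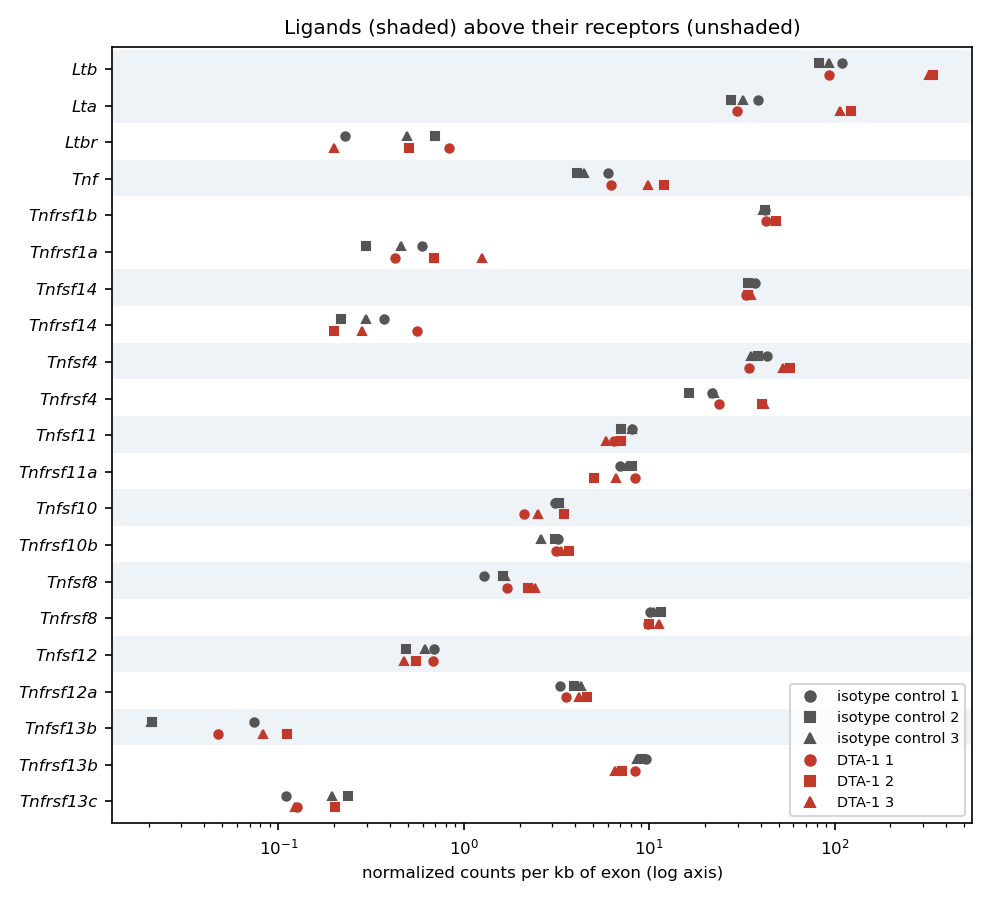
Normalized counts per kb of exon (x axis, log scale) of the ligands (shaded rows) and of their receptors (unshaded rows below them) in the 3 isotype control (gray) and 3 DTA-1 (red) libraries. Ltb and Lta lie far to the right of Ltbr in every library, Tnfsf4 and Tnfrsf4 lie close together, and Tnfsf13b (means 0.0385 and 0.0804) lies far to the left of Tnfrsf13b (9.1 and 7.37).

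Of the 12 adaptor and signaling genes behind these receptors, 0 were called with all 6 libraries by edgeR, DESeq2 or limma-trend, 1 (Birc3) passed 1.5-fold with an unadjusted p under 0.05, and Traf1 and Birc3 rose without DTA-1 replicate 1. That is 1 and 2 of 12, beside 1.09% and 0.583% of all genes in the higher direction. Birc3, an inhibitor of apoptosis bound to TRAF2, was at 80.7, 80.1 and 86.2 normalized counts with isotype control against 82.1, 159 and 164 with DTA-1. Birc3 had a log2 fold change of 0.71 (SE 0.22, adjusted p = 0.627, edgeR), and 0.97 (SE 0.07, adjusted p = 0.000115) without DTA-1 replicate 1. Traf1, an adaptor that is itself a target of NF-κB, was at 168, 177 and 197 with isotype control against 185, 288 and 272 with DTA-1. Its log2 fold change was 0.46 (SE 0.14, adjusted p = 0.627, edgeR), and 0.63 (SE 0.08, adjusted p = 0.00346) without DTA-1 replicate 1. Traf2 and Traf3 passed the adjusted p without DTA-1 replicate 1 (adjusted p = 0.029 and 0.0154, edgeR) at log2 fold changes of 0.44 and 0.55, under the fold limit. In Birc3 and Traf1 the level of DTA-1 replicate 1 lay within the isotype control range, as it did for Lta and Ltb.

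Of the 10 genes for the cutting of ligands and the turnover of their mRNAs, 0 were called with all 6 libraries by edgeR, DESeq2 or limma-trend, and Furin passed 1.5-fold with an unadjusted p under 0.05 and rose without DTA-1 replicate 1 (1 of 10 each time, beside 1.09% and 0.583% of all genes). Furin, a protease that cuts precursor proteins including TWEAK and BAFF, was at 1112, 1347 and 1318 normalized counts with isotype control against 1268, 2645 and 2617 with DTA-1. Furin had a log2 fold change of 0.79 (SE 0.27, adjusted p = 0.655, edgeR), and 1.06 (SE 0.08, adjusted p = 0.000115) without DTA-1 replicate 1. Adam17, the sheddase of TNF, had a log2 fold change of 0.22 (SE 0.09, adjusted p = 0.657, edgeR), and 0.3 (SE 0.08, adjusted p = 0.128) without DTA-1 replicate 1. Zfp36, which binds AU-rich elements such as those in the Tnf mRNA, had one of −0.15 (SE 0.15, adjusted p = 0.864, edgeR), and −0.27 (SE 0.15, adjusted p = 0.491) without that library. Its relative Zfp36l2 had a log2 fold change of −0.27 (SE 0.11, adjusted p = 0.657, edgeR), and without that library it passed the adjusted p but not the fold limit (−0.42, SE 0.07, adjusted p = 0.0211). Over the alternatives the adjusted p of Tnfrsf9, Birc3, Traf1, Traf2, Traf3, Furin and Zfp36l2 was lowest without DTA-1 replicate 1 and reached 0.999 at most.

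The genes most like the lymphotoxins across the 6 libraries were those that were also high in DTA-1 replicates 2 and 3 and low in the other 4 libraries. By Pearson r of log2 CPM over 6 libraries, among 8722 genes with a mean of at least 10 normalized counts, Lta was most like Eno1 (0.9992), Ltb (0.9978) and Stab1 (0.9973), and Ltb was most like Eno1 (0.9995), Shisa5 (0.9995) and Stab1 (0.9985). Tnf was most like Cycs (0.9957), Pdia5 (0.9939) and Upf1 (0.9905), and its r with Lta was 0.9431. A high r did not mean a like size of difference, since Eno1, a glycolytic enzyme, had a log2 fold change of 0.19 and Stab1, a scavenger receptor, one of 1.57. With 6 libraries that fall into 4 and 2, a high r can come from a shared gap between DTA-1 replicates 2 and 3 and the other libraries.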

How the data were processed

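RNA-seq was made from sorted ILC2s, 3 libraries with isotype control and 3 with DTA-1, from 10 ng of RNA each. The authors aligned and quantified the reads with Partek on mm10, and the submitters' processing notes also name STAR 2.5.3a and bcl2fastq 2.17.1.14. The deposited values are expected counts: each is the estimated number of reads of a gene, often not a whole number, and is not normalized. Reads of overlapping genes may be divided by estimate. Strand use and annotation release are not given in the sources used here. Gene ends were read as 1 before the table's stop, after which 47741 of 49721 symbols shared with GENCODE M21 (GRCm38) had the same coordinates. Total counts were 30569351 to 35131329 a library, and limits set from counts cover counting error only.

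Expected counts were rounded and fitted in R 4.3.3 with edgeR 4.0.16 (filterByExpr, TMM, robust quasi-likelihood F test, Benjamini-Hochberg adjustment over 14361 genes, common dispersion 0.0256). A call was an adjusted p under 0.05 and at least 1.5-fold, as the study defines it. Tested on simulated data of the same size, the procedure called 192 of 200 genes changed 2-fold and 7 others. The simulation gave every gene the common dispersion and changed all 3 DTA-1 libraries alike. It therefore checks the procedure and does not show which differences could be called here, where DTA-1 replicate 1 stood apart. The alternatives were DESeq2 1.42.0 (its size factors, and its Wald test), total counts, limma 3.58.1 (limma-trend, prior count 2), no filter, at least 10 counts in every library, a replicate block, each library left out, and other thresholds. Exon lengths came from GENCODE M21. Python 3.11.15 was used for tables and plots. An exact permutation test of 3 against 3 libraries cannot fall below 0.1, so none was run. The ligands and all gene lists were chosen with earlier results of these data known. Named genes were the ligands, genes that overlap or flank them, called genes of the lists, receptors of the ligands and the 3 genes most like Lta, Ltb and Tnf. Tnfrsf9, Traf2, Traf3, Adam17, Zfp36, Zfp36l2 and the cell type markers named alone lie outside that rule and were chosen after their values were seen. Promoters were missing for Tnfsf4 and Tnfsf12. The result of 1 marker gene is not reported here.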

Additional observations from a re-analysis of the deposited data

How the results depend on the processing

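With all 6 libraries and edgeR 0 of 14361 genes were called. The count was 2 (both lower) with no filter on low counts, 25 by DESeq2's Wald test, 337 at 1.5-fold with an unadjusted p under 0.05, and 0 to 111 with each library left out, the 111 being without DTA-1 replicate 1. Among the 10 ligands the count was 2 at the unadjusted p and 0 to 3 with each library left out. Among receptors it was 1 by DESeq2, 1 at the unadjusted p and 0 to 1 with each library left out. Among adaptors it was 1 at the unadjusted p and 0 to 2 with each library left out, and among processing and turnover genes 1 and 0 to 1. Of the fits that left out 1 library, calls were made only in that without DTA-1 replicate 1. With the replicate number as a block 1 gene was called over all genes and 0 of the ligands, and the log2 fold changes were 1.21 for Lta, 1.23 for Ltb and 0.92 for Tnf. The deviations of same-numbered libraries from their group means correlated at −0.0069 to 0.0152, and those of differently numbered libraries at −0.0145 to 0.0161. The numbers thus showed no pairing of the libraries, but with 3 libraries a group this check cannot exclude it. The median of the ligands was 0.37 with the block, 0.35 with total counts, and 0.3 to 0.55 with each library left out. With each library left out, the log2 fold change of Tnfsf13b was 0.75 to 1.93 and that of Lta 1.07 to 1.8. Scaling by total counts moved the median of all genes to −0.044. Depth limits Tnfsf12 and Tnfsf13b, which had under 40 counts in every library.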
